A study of Mus musculus with 18 samples.

Results

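The markers described here are 10 genes by which macrophages of the mouse liver are recognised: Clec4f, Cd5l, Vsig4, Timd4, Marco, Adgre1, Cd68, Csf1r, C1qa and C1qb. They were chosen by name, and all 10 were found among the 19057 gene symbols of a liver RNA-seq table with 18 libraries. All 10 passed the filter on low values (at least 1 RPKM in at least 3 libraries). The filter kept 10598 genes in the 12 libraries of the 4 groups not themselves given AOS, and 10818 genes in the libraries of all 6 groups.

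The libraries came from livers of male ICR mice aged 10 weeks, 3 mice in each of 6 groups. Con mice received neither drug nor transplant. STZ mice received streptozotocin, a toxin of the insulin-producing beta cells that gives a model of type 1 diabetes. A10-FMT mice received STZ and then, daily by mouth, gut microbiota from donor mice dosed with alginate oligosaccharide (AOS) at 10 mg/kg, and Con-FMT mice received STZ and microbiota from control donors, so both transplanted groups carried the STZ treatment. The donor material was pooled over mice. AOS mice received AOS at 10 mg/kg without STZ, and STZ+AOS mice received both, as given by the labels, which do not say when AOS was given. The study behind the series was about sperm production in STZ mice after transfer of microbiota from AOS-dosed donors, and liver was a further tissue. Whole liver was sequenced, and cells were not sorted, so fewer cells of a type and less RNA per cell cannot be told apart.

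Kupffer cells are the resident macrophages of the liver sinusoids. They clear bacteria, debris and aged red cells from portal blood, and they use scavenger receptors, complement receptors and receptors for dying cells to do so. Clec4f (a C-type lectin) is largely restricted to Kupffer cells in rodents, Timd4 (a phosphatidylserine receptor) marks long-lived resident macrophages, Vsig4 (the complement receptor CRIg) binds C3 fragments, and Cd5l is a secreted scavenger receptor cysteine-rich protein. Marco is a class A scavenger receptor with a collagenous domain that binds bacteria and particles. Adgre1 (F4/80), Cd68 (a glycoprotein of late endosomes and lysosomes) and Csf1r (the receptor of Csf1 and Il34) are shared by most macrophages, and C1qa and C1qb encode chains of C1q, which starts the classical complement pathway and is made largely by macrophages.

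Promoters were matched by symbol for 7 of the 10 members in the RefSeq table of build GRCm38.p6: Clec4f, Cd5l, Vsig4, Timd4, Marco, Cd68 and C1qb. The 250 bases before the annotated start are printed for Marco, the member whose level differed most between groups, and for C1qb, Vsig4 and Cd5l, the matched members whose levels tracked the other members most closely. They cover chr1:120505025-120505274 (minus strand) for Marco, chr4:136886201-136886450 (minus strand) for C1qb, chrX:96293439-96293688 (minus strand) for Vsig4 and chr3:87357631-87357880 (plus strand) for Cd5l, and each is written 5′ to 3′ in the direction of the gene. Capitals mark matches, on either strand, to GAGGAA (the PU-box core bound by Spi1), TGCTGA (a Maf half-site) or TGAGTCA (an AP-1 site). The last letters of TGCTGA can overlap the first letters of TGAGTCA.
Marco: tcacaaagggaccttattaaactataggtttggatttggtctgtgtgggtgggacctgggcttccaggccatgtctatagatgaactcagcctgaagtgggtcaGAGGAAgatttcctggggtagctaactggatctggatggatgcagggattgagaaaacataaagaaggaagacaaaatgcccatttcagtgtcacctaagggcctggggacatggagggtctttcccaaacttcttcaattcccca
C1qb: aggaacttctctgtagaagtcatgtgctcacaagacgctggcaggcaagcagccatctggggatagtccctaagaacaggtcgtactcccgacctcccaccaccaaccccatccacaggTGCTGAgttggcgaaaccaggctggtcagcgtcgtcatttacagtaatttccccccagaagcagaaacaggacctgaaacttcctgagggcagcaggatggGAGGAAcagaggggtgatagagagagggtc
Vsig4: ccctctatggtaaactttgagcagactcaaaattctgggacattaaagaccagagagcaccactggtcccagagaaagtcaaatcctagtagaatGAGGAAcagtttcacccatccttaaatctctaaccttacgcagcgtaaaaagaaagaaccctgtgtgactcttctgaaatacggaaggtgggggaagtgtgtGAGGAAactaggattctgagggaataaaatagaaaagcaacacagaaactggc
Cd5l: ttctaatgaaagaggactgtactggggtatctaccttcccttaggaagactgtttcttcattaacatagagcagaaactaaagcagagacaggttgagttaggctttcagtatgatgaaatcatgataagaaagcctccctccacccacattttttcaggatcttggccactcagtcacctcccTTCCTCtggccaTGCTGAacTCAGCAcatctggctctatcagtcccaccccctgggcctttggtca

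A PU-box core occurred in 5 of the 7 members' windows (Cd5l, Vsig4, Marco, Cd68 and C1qb) and in 23.3% of the 32851 windows of the same length in the table. A Maf half-site occurred in 4 of 7 (Clec4f, Cd5l, Timd4 and C1qb), against 16.1% of all windows, and an AP-1 site in Cd68 only, against 4.46%. Marco held a single match, to the PU-box core, whose first base lay at position -146 from the start. These matches describe the letters in the windows, and binding was not measured here.

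In GENCODE M21 (GRCm38, which mm10 also denotes), Clec4f lies at chr6:83644542-83656187 on the minus strand, Cd5l at chr3:87357881-87371073 on the plus strand, Vsig4 at chrX:96247203-96293438 on the minus strand, Timd4 at chr11:46810800-46844332 on the plus strand and Marco at chr1:120474538-120505024 on the minus strand. Adgre1 lies at chr17:57358691-57483527 on the plus strand, Cd68 at chr11:69664213-69666153 on the minus strand, Csf1r at chr18:61100598-61132149 on the plus strand, C1qa at chr4:136895917-136898803 on the minus strand and C1qb at chr4:136880129-136886187 on the minus strand. Csf1r was the only member that another annotated gene overlapped in an exon: 1 exon is shared with Hmgxb3 on the opposite strand, and whether the counting used strand is not given in the sources used here.

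The members were clearly present in these livers. On the RPKM scale, which is per length and so allows genes to be compared, mean levels over the 18 libraries were 37.4 for C1qb, 36.6 for C1qa, 35.9 for Cd5l and 29.2 for Clec4f. Vsig4 followed at 15.1, Marco at 12.01, Csf1r at 8.36 and Cd68 at 7.34, and the lowest were Timd4 at 2.85 and Adgre1 at 2.65. Adgre1 stood at the 56.1 percentile and C1qb at the 91.0 percentile of all symbols by mean level. Hepatocyte RNA dominated the libraries: Alb, the plasma albumin gene, had a mean level of 30860 RPKM, while Ptprc, which marks all white blood cells, had 1.45 RPKM. No member was at 0 in any library. Steps between the lowest values of genes with a single annotated transcript implied about 12650000 to 14600000 mapped reads per library, so that Marco rested on roughly 49 to 92 reads in Con and 252 to 1640 reads in STZ, and Timd4 on 44 to 71 and 70 to 167 reads. These read numbers are estimates that rest on the annotated transcript lengths.

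Libraries of the same group differed in the members as a set. STZ mouse 3, A10-FMT mouse 2 and Con-FMT mouse 2 each had the lowest value of their group in all 10 members, and Con mouse 2 in 9 of 10. Summed over the 10 members, the level was 82.3 RPKM in A10-FMT mouse 2 against 219.9 and 226.3 in mice 1 and 3. It was 160.1 RPKM in STZ mouse 3 against 268.1 and 324.5 in mice 1 and 2, and 128.8 RPKM in Con-FMT mouse 2 against 201.6 and 199.95. The summed level of the 3 general leukocyte genes was lowest in A10-FMT mouse 2 (2.83 RPKM against 6.22 and 5.12) and in STZ mouse 3 (4.18 against 5.72 and 7.06), but not in Con-FMT, where mouse 3 was lowest at 4.46 RPKM. The summed level of the 7 endothelial genes was lowest in all 3 of these mice, at 45.5 RPKM in A10-FMT mouse 2 (64.5 and 77.3 in its group mates), 59.3 in STZ mouse 3 (71.1 and 75.6) and 61.3 in Con-FMT mouse 2 (77.6 and 79.8). The part of either in the members' levels was not tested. The hepatocyte sum was 50199 RPKM in A10-FMT mouse 2 and 57875 and 55738 RPKM in its group mates. The comparisons of the members that hold STZ mouse 3 in STZ against Con or the FMT groups, or A10-FMT mouse 2, are given with and without these mice.

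**Figure D1:**
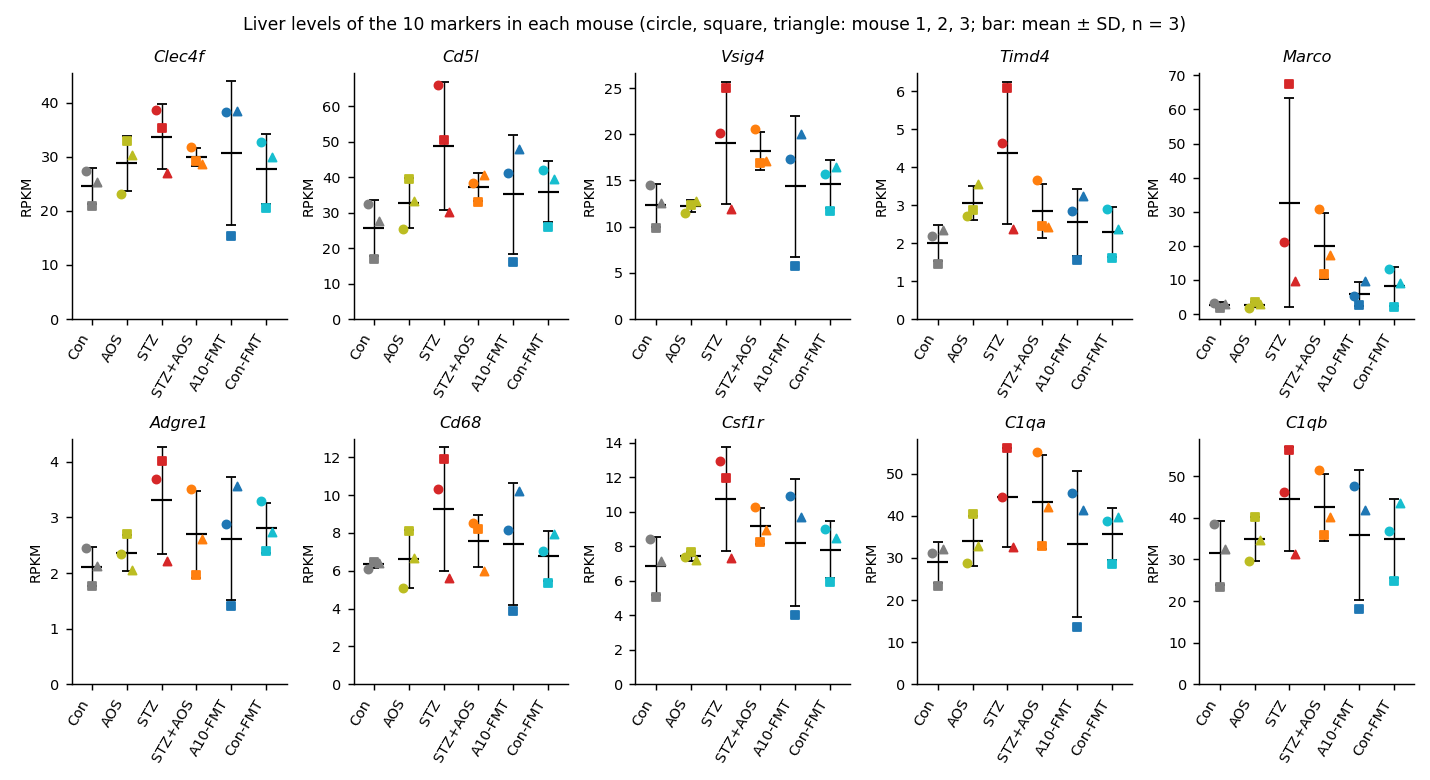
RPKM (vertical axis, linear) of each of the 10 members in each of the 18 mice, by group; symbols give the mouse number, and bars give the group mean ± SD (n = 3). Marco reaches 67.4 RPKM in STZ mouse 2 and stays at or below 3.46 RPKM in every Con and AOS mouse, while the groups of the other members lie closer together.

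Marco was the member with the largest rise in STZ. Its level was 3.34, 1.81 and 2.96 RPKM in the Con mice, a mean of 2.70 ± 0.797 (SD, n = 3). In the STZ mice it was 21.1, 67.4 and 9.67 RPKM, a mean of 32.7 ± 30.5 (SD, n = 3). All 3 STZ mice lay above all 3 Con mice, and the means differed 12.1-fold. On the log2(RPKM + 1) scale the change was 2.79 ± 0.68 (SE), with an adjusted p of 0.00936 by limma, and it ranked 50 among the changes of 10598 genes, counted from the largest increase. The spread among the STZ mice was wide, mouse 2 being far above mouse 3. Without STZ mouse 2 the change was still 2.08 with an adjusted p of 0.0373, and over the removal of each mouse in turn it ranged from 2.08 to 3.42.

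Marco also rose with STZ in mice that received AOS. Its level was 1.84, 3.46 and 2.97 RPKM in AOS mice (2.76 ± 0.831, SD, n = 3). In STZ+AOS mice it was 30.8, 11.7 and 17.3 RPKM (19.9 ± 9.78, SD, n = 3). The lowest STZ+AOS mouse stood at 11.7 RPKM and the highest AOS mouse at 3.46, so the groups did not overlap, and the means differed 7.23-fold. The log2 change was 2.40 ± 0.63 (SE), with an adjusted p of 0.00858 by limma in the fit of all 6 groups. The STZ change with AOS minus that without AOS was -0.39 ± 0.89 (SE), with an adjusted p of 0.98, an error too wide to show that the changes were alike. Averaged over mice without and with AOS, a comparison added after seeing the data, the STZ change of Marco was 2.60 ± 0.44 (SE), with an adjusted p of 0.000213 by limma.

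In the transplanted groups Marco lay between Con and STZ. A10-FMT mice had 5.19, 2.58 and 9.75 RPKM (5.84 ± 3.63, SD, n = 3), and Con-FMT mice had 13.3, 2.01 and 9.08 RPKM (8.13 ± 5.70, SD, n = 3). Each group held a mouse within the range of Con, and A10-FMT mouse 3 and Con-FMT mouse 1 were at or above STZ mouse 3. Against STZ, the log2 change was -2.03 ± 0.68 (SE) in A10-FMT, with an unadjusted p of 0.0126 and an adjusted p of 0.144 by limma. In Con-FMT it was -1.74 ± 0.68 (SE), with an unadjusted p of 0.0269 and an adjusted p of 0.191. Neither passed the threshold, and both comparisons share the 3 STZ mice. Without STZ mouse 3 both passed, at -2.65 (adjusted p of 0.0284) and -2.36 (adjusted p of 0.0382). Against Con the changes were 0.77 ± 0.68 (SE) for A10-FMT and 1.06 ± 0.68 (SE) for Con-FMT, with adjusted p of 0.449 and 0.281 by limma, and A10-FMT minus Con-FMT was -0.29 ± 0.68 (SE, adjusted p of 0.999). In order of the group means, Marco was highest in STZ, followed by STZ+AOS, Con-FMT, A10-FMT, AOS and Con, and every pair of neighbours in this order overlapped.

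Timd4 was the other member called in STZ. It stood at 2.19, 1.45 and 2.34 RPKM in Con (1.99 ± 0.476, SD, n = 3), and at 4.65, 6.08 and 2.38 RPKM in STZ (4.37 ± 1.87, SD, n = 3). The groups did not overlap, although the lowest STZ mouse exceeded the highest Con mouse by only a small step, 2.38 against 2.34 RPKM. The log2 change was 0.79 ± 0.27 (SE), with an adjusted p of 0.0402 by limma. This call was not stable: the adjusted p was 0.105 with median-ratio scaling, 0.0917 with quantile normalization, 0.0767 without the filter and 0.0657 with only Con and STZ in the fit. The call was also lost when any single mouse of Con or STZ other than STZ mouse 3 was left out. In mice that received AOS it was not called, Timd4 being 2.72, 2.88 and 3.57 RPKM in AOS mice and 3.67, 2.46 and 2.42 RPKM in STZ+AOS mice (log2 change of -0.09 ± 0.25, SE, adjusted p of 0.809). The difference between the STZ changes with and without AOS was -0.88 ± 0.36 (SE), with an unadjusted p of 0.0259 and an adjusted p of 0.856 by limma.

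Over all 10 members, the share called in the STZ comparison was not above that of genes at large. Of the 10 members 2 were called at an adjusted p under 0.05, against 38.5% of all tested genes. Both were higher, as were 33.0% of all tested genes, and none was lower. STZ and Con mice did not overlap, with STZ higher, in 3 members (Timd4, Marco and C1qa), against 40.8% of all tested genes. All 10 changes were above 0 and above the median change of all genes, which was 0.21, and the median of the members was 0.56. That general shift depends on the scaling, since with median-ratio scaling the median of all genes was -0.01, the median of the members was 0.30, and the share of called genes that were higher moved from 85.7% to 51.3%. By group mean, STZ was the highest group in all 10 members, and Con the lowest in 9 (Vsig4 was lowest in AOS). Neighbouring groups in this order overlapped in every member, except that all STZ+AOS mice lay above all Con-FMT mice in Vsig4. The members are correlated with each other, so their common direction is not 10 separate observations.

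**Figure D2:**
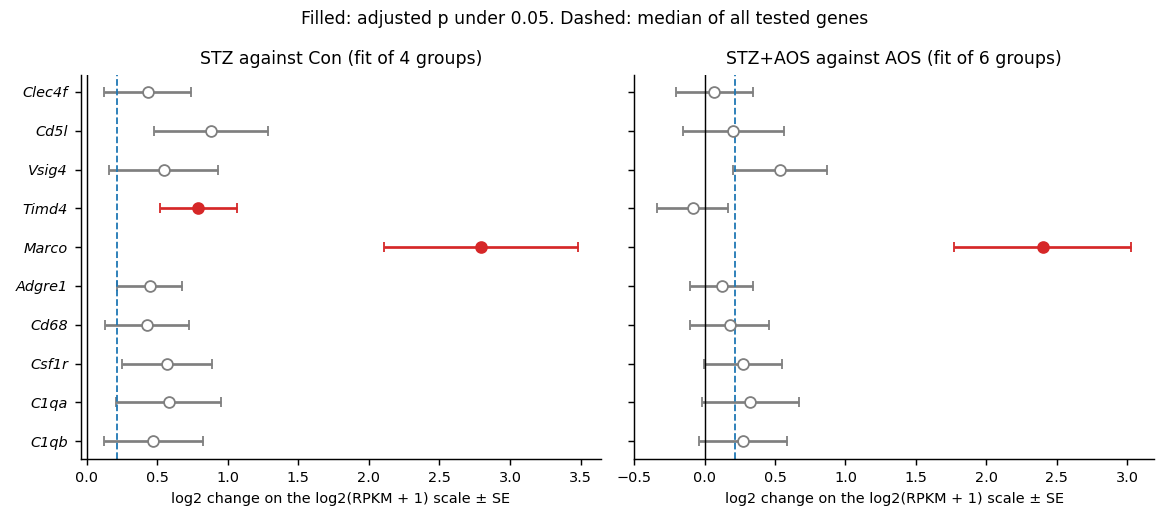
Change of each member on the log2(RPKM + 1) scale (horizontal axis) ± SE for STZ against Con, left, and STZ+AOS against AOS, right. Filled points passed an adjusted p under 0.05, and dashed lines give the median of all tested genes (0.21 in both); Marco lies at 2.79 and 2.40, and all other members lie at or below 0.88.

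Among the genes most particular to resident macrophages, Clec4f was 27.4, 21.0 and 25.4 RPKM in Con (24.6 ± 3.28, SD, n = 3) and 38.7, 35.4 and 27.0 RPKM in STZ (33.7 ± 5.99, SD, n = 3). Its log2 change was 0.43 ± 0.31 (SE), with an adjusted p of 0.277 by limma. The STZ mice 1 and 2 were above every Con mouse, and STZ mouse 3 was within the range of Con. Cd5l had the largest change after Marco, 0.88 ± 0.40 (SE, adjusted p of 0.103), with 32.4, 16.9 and 27.7 RPKM in Con and 65.9, 50.5 and 30.1 RPKM in STZ. Vsig4 was 14.5, 9.86 and 12.6 RPKM in Con and 20.1, 25.0 and 11.9 RPKM in STZ, and its change on the log2 scale was 0.55 ± 0.38 (SE, adjusted p of 0.273). In both genes STZ mouse 3 again lay among the Con mice.

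The genes shared by most macrophages behaved likewise. Adgre1 had group means of 2.11 ± 0.350 RPKM in Con and 3.31 ± 0.966 RPKM in STZ (SD, n = 3), a log2 change of 0.45 with an adjusted p of 0.141 by limma. Cd68 was 6.33 ± 0.189 RPKM in Con and 9.27 ± 3.28 RPKM in STZ (SD, n = 3; log2 change of 0.43, adjusted p of 0.268), and the 3 Con mice of this gene were nearly equal, at 6.12, 6.48 and 6.40 RPKM. The STZ mice of Cd68 stood at 10.3, 11.9 and 5.60 RPKM, the last below every Con mouse. Csf1r was 6.85 ± 1.70 RPKM in Con and 10.7 ± 3.01 RPKM in STZ (SD, n = 3; log2 change of 0.57, adjusted p of 0.173).

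C1qa and C1qb had the same lowest mouse in each group. C1qa was 31.3, 23.5 and 32.1 RPKM in Con and 44.6, 56.1 and 32.5 RPKM in STZ, without overlap, and its log2 change of 0.58 ± 0.37 (SE) had an adjusted p of 0.233 by limma. C1qb was 38.6, 23.4 and 32.6 RPKM in Con and 46.2, 56.2 and 31.3 RPKM in STZ (log2 change of 0.47, adjusted p of 0.297). C1qc, the third chain of C1q and not a member, was 26.6 ± 5.92 RPKM in Con and 45.0 ± 11.8 RPKM in STZ (SD, n = 3), with a log2 change of 0.73 and an adjusted p of 0.109.

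When STZ mouse 3 was left out, 4 of the 10 members were called in STZ against Con, with all 4 higher, and the share of all genes called was 47.4%. The members gained were Cd5l (1.19, adjusted p of 0.0363) and Adgre1 (0.65, adjusted p of 0.0365), beside Marco and Timd4. In the STZ effect averaged over mice without and with AOS, 1 of 10 members was called (Marco), against 55.6% of all genes. The range of Timd4 over its alternatives ran from an adjusted p of 0.0238 to 0.459, and that of Marco from 0.000213 to 0.0217.

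In STZ+AOS against AOS, 1 of the 10 members was called, against 37.9% of all genes, and it was higher, as were 31.8% of all genes. Besides Marco, the STZ+AOS mice lay above all AOS mice in Vsig4 and Csf1r, so 3 members did not overlap with STZ+AOS higher, against 40.5% of all genes. Vsig4 was 11.5, 12.3 and 12.8 RPKM in AOS and 20.5, 16.9 and 17.1 RPKM in STZ+AOS, a log2 change of 0.53 ± 0.33 (SE) with an adjusted p of 0.213 by limma. With only these groups in the fit, Vsig4 passed, at an adjusted p of 0.0192. Csf1r was 7.37, 7.67 and 7.18 RPKM in AOS and 10.3, 8.25 and 8.95 RPKM in STZ+AOS (log2 change of 0.27, adjusted p of 0.459). The median change of the members was 0.24, close to the 0.21 of all genes, and 5 of the 10 members were above that median. Clec4f, which most narrowly marks Kupffer cells, was 28.8 ± 5.15 RPKM in AOS and 29.9 ± 1.66 RPKM in STZ+AOS (SD, n = 3; log2 change of 0.07, adjusted p of 0.862), and its change was -0.17 with median-ratio scaling and -0.16 with quantile normalization.

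None of the 10 members was called by limma in either transplanted group against STZ, and 1 (Marco, A10-FMT) and 2 (Marco and Timd4, Con-FMT) had an unadjusted p under 0.05. Of all 10598 tested genes, 2211 (A10-FMT) and 2130 (Con-FMT) had an unadjusted p under 0.05, so these members do not stand out by number. All 10 changes were below 0 in A10-FMT against STZ, with a median of -0.45, and 0.226% of all genes were called. In Con-FMT against STZ all 10 were again below 0, with a median of -0.35, and 0.00944% of all genes were called. These comparisons share their STZ mice, so the common sign is not independent between them. Apart from Marco, changes ran from -0.57 (Timd4) to -0.22 (Clec4f) in A10-FMT and from -0.66 (Timd4) to -0.16 (Adgre1) in Con-FMT. Without STZ mouse 3, 2 of the 10 members (Marco and Timd4) were called lower in each, when 12.7% (A10-FMT) and 15.5% (Con-FMT) of all genes were called. Without A10-FMT mouse 2 the median change of the members against STZ was -0.0046, and Clec4f, Vsig4, Cd68 and C1qb were above 0, at 0.20, 0.03, 0.04 and 0.04. Marco was then at -1.63 (adjusted p of 0.376 by limma), and no member was called, 0 having an unadjusted p under 0.05, nor was any other gene.

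The FMT groups against Con called no member by limma, with 0 at an unadjusted p under 0.05: 18.4% of all genes were called in A10-FMT and 19.4% in Con-FMT. Of the 10598 genes, 3734 (A10-FMT) and 3874 (Con-FMT) had an unadjusted p under 0.05. All 10 changes were above 0 in both, and their medians of 0.16 and 0.20 were close to the medians of all genes, 0.16 and 0.19. The median of the members in A10-FMT against Con depended on single mice. Over the removal of each A10-FMT or Con mouse in turn, it ran from -0.01 to 0.56. The highest value, 0.56, was that without A10-FMT mouse 2, when Con mouse 2, lowest of its group in 9 of 10 members, was kept. All genes then had a median of 0.18, and all 10 members were above it. Their changes then ran from 0.44 (Adgre1) to 1.16 (Marco), and 4 had an unadjusted p under 0.05. The lowest adjusted p was 0.0733 (Clec4f), so none was called by limma, when 10.9% of all genes were. A10-FMT and Con-FMT overlapped in every member, and in all but 946 of 10598 genes. Of all genes 0% were called between them by limma, and 303 of 10598 had an unadjusted p under 0.05, none of which was a member. Over the removal of each mouse of these groups in turn, the median of the members in this comparison ran from -0.27 to 0.34. It was -0.08 with all mice. The highest value, 0.34, was that without A10-FMT mouse 2, when Con-FMT mouse 2, lowest of its group in all 10 members, was kept. All 10 members were then above 0, from 0.11 (Marco) to 0.48 (Clec4f), against 3 of 10 with all mice. None of them was called by limma without A10-FMT mouse 2, nor was any gene, and 1 member had an unadjusted p under 0.05. Clec4f was 38.3, 15.4 and 38.5 RPKM in the A10-FMT mice and 32.8, 20.5 and 30.0 RPKM in the Con-FMT mice, so that mouse 2 was low in each. Cd5l was 41.3, 16.1 and 48.1 RPKM in the A10-FMT mice, and the Con-FMT mice had 42.1, 25.99 and 39.6 RPKM.

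By limma, AOS against Con called no member (0 at an unadjusted p under 0.05) and 0.00924% of all genes (781 of 10818 at an unadjusted p under 0.05). The AOS mice lay above all Con mice in Timd4 only (log2 change of 0.45 ± 0.25, SE, adjusted p of 0.764 by limma). Among all genes they did so in 2068 of 10818. STZ+AOS against STZ called no member and 0% of all genes (657 of 10818 had an unadjusted p under 0.05, none of them a member), and all 10 changes were below 0, with a median of -0.20. The STZ change with AOS minus that without AOS was below 0 in all 10 members, with a median of -0.31, and called no member and 0% of all genes by limma. Of the 584 genes with an unadjusted p under 0.05 there, Timd4 was the only member.

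**Figure D3:**
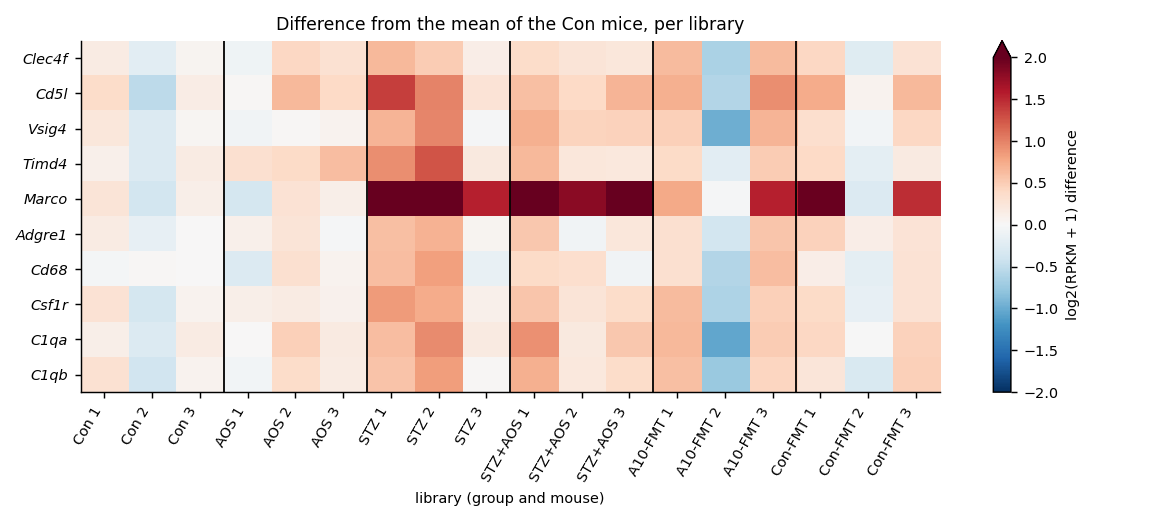
Difference of log2(RPKM + 1) from the mean of the 3 Con mice for each member (vertical) in each library (horizontal, grouped); red is higher and blue lower, and the colour scale ends at 2, above which Marco lies in several STZ and STZ+AOS mice. A10-FMT mouse 2 is below or near Con in all members, and STZ mouse 3 is near Con in every member but Marco.

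The members varied together between mice. Over the 18 libraries, Pearson's r of log2(RPKM + 1) between 2 members ran from 0.62 to 0.96 in the 45 pairs, with a median of 0.84. The closest pair was C1qa with C1qb, at 0.96, and the least close was Clec4f with Marco, at 0.62. After each group was centred on its own mean, the values ran from 0.68 to 0.96, so the correlation was also present between mice of 1 group. These are descriptions over libraries that share 6 group means, and RPKM of 1 library share its total. Csf1r had the highest mean r with the other 9 members, 0.88, and Marco the lowest, 0.72.

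Relative to Clec4f in the same library, Marco still differed between groups while the other members differed less. The ratio of Marco to Clec4f was 0.122, 0.0863 and 0.117 in Con, and 0.545, 1.90 and 0.358 in STZ. It was 0.0799, 0.105 and 0.0981 in AOS, and 0.968, 0.401 and 0.604 in STZ+AOS. The lowest STZ or STZ+AOS mouse stood at 0.358 and the highest Con or AOS mouse at 0.122, which is a description of the measure already tested above. In A10-FMT the ratio was 0.136, 0.168 and 0.253, and in Con-FMT it was 0.405, 0.0982 and 0.303. A10-FMT mouse 2 and Con-FMT mouse 2 were each lowest of their group in every member. The ratio was 0.168 in the former, above the highest Con mouse (0.122), and 0.0982 in the latter, within the range of Con. The mean ratio of C1qa to Clec4f was 1.17 ± 0.0785 in Con and 1.31 ± 0.237 in STZ, and that of Csf1r to Clec4f was 0.276 ± 0.0337 and 0.315 ± 0.0380 (SD, n = 3). For Timd4 it was 0.0804 ± 0.0115 in Con and 0.127 ± 0.0423 in STZ, and for Cd5l 1.03 ± 0.196 and 1.41 ± 0.296 (SD, n = 3).

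**Figure D4:**
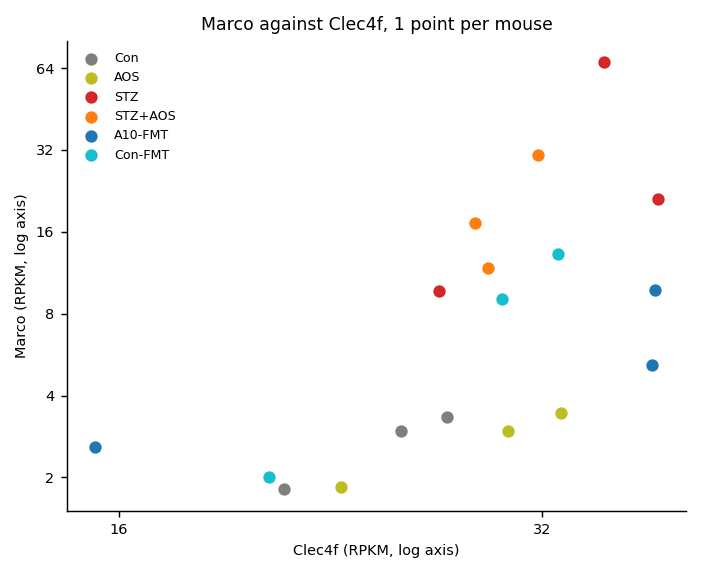
Level of Marco (vertical, RPKM, log axis) against Clec4f (horizontal, RPKM, log axis), 1 point per mouse, coloured by group. The STZ and STZ+AOS mice lie above all Con and AOS mice, with Marco at 9.67 RPKM or more against 3.46 RPKM or less, and the FMT mice lie between and among them; STZ mice 1 and 2 also have more Clec4f (38.7 and 35.4 RPKM) than any Con or AOS mouse (at most 33.0).

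The 10 tested genes whose levels were most like the members' mean (each member scaled to mean 0 and SD 1 over the 18 libraries) were mostly genes of white blood cells. They were C1qc (r of 0.98), Ctss (0.96, a lysosomal protease), Lgals3 (0.95, galectin-3), Laptm5 (0.95, a lysosomal protein of blood cells), Nckap1l (0.94, a regulator of actin in blood cells), Spi1 (0.94, the transcription factor PU.1), Rac2 (0.93, a small GTPase of blood cells), Cfp (0.93, properdin), Pirb (0.93, an inhibitory receptor of myeloid cells) and Lgmn (0.93, a lysosomal protease). Of these 10 genes 6 stood in the lists of macrophage genes used here, C1qc in 2 of them.

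Other genes of macrophages and of the cells around them were read from 19 further lists. In STZ against Con, 20 of their 95 tested entries were higher and 9 lower, when 33.0% of all tested genes were higher and 38.5% were called. Without STZ mouse 3, an alternative added after seeing the data, 34 of the 95 were higher and 8 lower, when 47.4% of all genes were called. Among the 15 other Kupffer cell genes 1 was higher and 1 lower. Cd163, the receptor for hemoglobin bound to haptoglobin, rose from 1.05 RPKM in Con to 2.49 RPKM in STZ (log2 change of 0.73, adjusted p of 0.0393). C6, a terminal complement component that hepatocytes also make, fell from 107.5 RPKM to 9.56 RPKM (log2 change of -3.68, adjusted p of 0.00124). Of 12 tested genes of mononuclear phagocytes in general, 1 was higher: Lgmn, with a log2 change of 0.63 and an adjusted p of 0.0364 by limma. Ctss had a log2 change of 0.61 and an adjusted p of 0.164.

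Among transcription factors of macrophages, Maf (0.49, adjusted p of 0.0328 by limma) and Rbpj (0.28, adjusted p of 0.0212, the nuclear effector of Notch) rose. Spi1 was not called (0.79, adjusted p of 0.066).

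Beside the 33.0% of all genes that were higher (4208 of 10576 genes without STZ mouse 3), the counts below are of few genes each. Of 5 tested signals of the Kupffer cell niche, 3 rose (4 without STZ mouse 3): Dll1, a Notch ligand (0.76, adjusted p of 0.000395), Gdf2, the BMP9 ligand (0.68, adjusted p of 0.0064), and Csf1, a ligand of Csf1r (0.42, adjusted p of 0.0174 by limma). Of 8 tested genes for the uptake of dying cells and lipid, 4 rose (5 without STZ mouse 3): Cd36, a fatty acid and scavenger receptor that hepatocytes also express (2.11), Mertk, a receptor kinase of macrophages and endothelium (0.82), Pros1, its bridging ligand, protein S, made largely by hepatocytes (0.50), and Lrp1 (0.26, near the median change of all genes, 0.21). Of 6 genes of C1 and C3, C3 was higher (0.55) and C1rb lower (-2.56). C1rb spread widely within groups, at 31.9, 3.13 and 21.4 RPKM in Con and 1.73, 1.35 and 1.32 RPKM in STZ. It was 2.29, 34.2 and 24.3 RPKM in AOS and 1.76, 23.2 and 2.27 RPKM in STZ+AOS, and the part of STZ in its level was not tested apart from differences between mice. C3 is made mainly by hepatocytes.

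Of the 9 genes in the monocyte list, 4 were tested and 3 were higher, beside 33.0% of all genes: Plac8 (0.73), Cd44 (0.80) and Lyz2 (1.06), all of which other cells also express. The summed level of the list was 24.3 to 33.0 RPKM in Con and 36.1 to 84.5 RPKM in STZ, highest in STZ mouse 2 as for Marco, and it was 27.7 to 31.9 RPKM in AOS and 28.2 to 62.6 RPKM in STZ+AOS. The defining genes were low: the mean of Ccr2 was 0.267 RPKM in Con and 0.107 RPKM in STZ, that of Ly6c2 1.38 and 1.12 RPKM, and none of the 9 was at 0 in every library. The part of monocytes in the level of Marco was not tested. Among 5 tested genes of lipid-handling macrophages none was higher and Fabp5 was lower (-2.31), while Cd9 had a log2 change of 0.57 and an adjusted p of 0.0743 by limma. Of 5 tested cytokine genes 1 was called higher (Ccl2, 0.91, named after its value was seen). Ccl2 was 0.09, 0.1 and 0.65 RPKM in Con and 1.35, 0.83 and 2.08 RPKM in STZ, near the floor. No Con mouse reached 1 RPKM, so Ccl2 passed the filter only through STZ and FMT mice, and its rise is no support. The highest cytokine genes by level, Il18 and Il1b, had log2 changes of 0.12 and -0.15.

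In STZ against Con 585 of all 10598 tested genes were lower, and 1401 of 10586 with median-ratio scaling. For other cell types, 3 of 5 tested hepatocyte genes were lower in STZ: Ttr (-0.92), Fga (-0.90) and Apoa1 (-0.70). Kdr (0.64) and Pecam1 (0.54) were higher among 7 endothelial genes, and Dcn (0.72) among 6 of stellate cells, where Rgs5 had 0.16. Sox9 (-0.73) was lower of 2 tested bile duct genes and Krt19 had 0.02. S100a9 (-1.06, adjusted p of 0.0498 by limma) was lower of 2 neutrophil genes, and S100a8 had -0.73. Of 9 genes of T and NK cells 1 was tested, Cd4 (-0.83, named after its value was seen). Cd4 was 1.29, 1.03 and 1.16 RPKM in Con and 0.16, 0.29 and 0.19 RPKM in STZ. It reached 1 RPKM in the Con mice only and so passed the filter through the group where it was high. A fall was thus fixed in advance and is no result about these cells. Nkg7 and Gzma were below the filter, as were all 4 B cell and all 4 dendritic cell genes. The 3 general leukocyte genes and the 3 tested red cell genes were not called, with Coro1a at 0.08, Cd53 at 0.28, Hba-a1 at -0.42 and Hbb-bs at 0.07. Against STZ, none of the 95 listed entries was called in either FMT group, and in STZ+AOS against AOS 19 of 98 were higher and 6 lower, when 31.8% of all genes were higher and 37.9% were called.

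**Figure D5:**
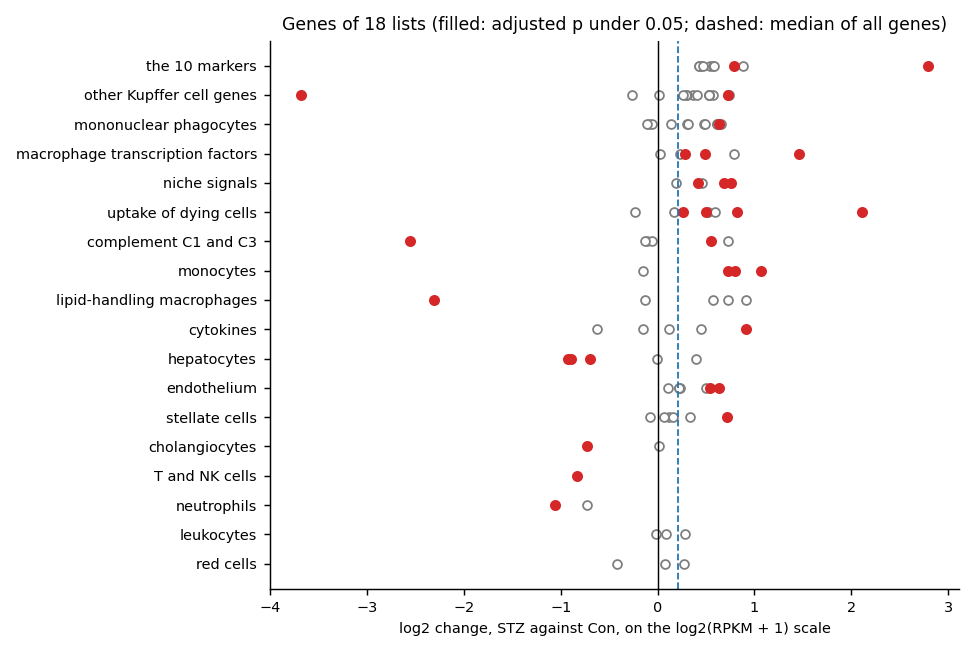
Change in STZ against Con on the log2(RPKM + 1) scale (horizontal) for each tested gene of 18 lists (vertical), filled where the adjusted p was under 0.05; the dashed line is the median of all genes, 0.21. Marco, at 2.79, is the largest increase on the plot, C6, at -3.68, the largest decrease, and the niche signals called lie at 0.42, 0.68 and 0.76.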

How the data were processed

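Liver RNA of 18 mice (3 per group) was sequenced by the authors on an Illumina instrument after oligo(dT) selection. The deposited table holds RPKM values, reads scaled by transcript length and by mapped reads, computed by the authors; the unit is taken from their methods, and read counts were not used here. The labels name mm10 and Bowtie 0.12.2, the methods another aligner, so the aligner is uncertain. Depth per library is known only as an estimate from steps in the low values. No column was left unmapped.

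RPKM were taken as log2(RPKM + 1), so a fold change of a low gene is understated. Of 19057 symbols, 3 that occurred more than once (6 entries) were left out. Genes at 1 RPKM or more in at least 3 libraries entered linear models (limma 3.58.1, R 4.3.3, with trend, two-sided, Benjamini-Hochberg over all tested genes, called at adjusted p under 0.05). Comparisons among Con, STZ, A10-FMT and Con-FMT used those 12 libraries, and comparisons with AOS or STZ+AOS used all 18. SE are limma's moderated errors. Nothing in the labels says how cages or litters were shared, so p-values measure the spread between these mice, taken as independent. In Hbb-bs, mouse 3 lay between mice 1 and 2 in Con (0.85, 220.2 and 91.9 RPKM) and in AOS (0.90, 133.0 and 84.6 RPKM). Among the members, Con mouse 3 was highest of its group in 2 and lowest in 0, and so lay between mice 1 and 2 in the rest. AOS mouse 3 was highest in 2 and lowest in 2, and lay between mice 1 and 2 in the rest. Whether libraries of a group are independent was not tested, and the SD and p-values of comparisons with Con or AOS take mouse 3 as a separate mouse. The fit was tested on simulated data.

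Other genes were named by rule: up to 4 called genes of each list with the smallest p in STZ against Con, or, where fewer than 2 were called, up to 2 with the highest mean RPKM, and the 10 genes most correlated with the members. A gene that this rule names is not reported here. Members and lists were chosen with earlier results of these data known. Alternatives were median-ratio scaling, quantile normalization, a pseudocount of 0.1, other filters, no trend, other sets of groups, a replicate block and leaving out each mouse. Averaging the STZ effect over mice without and with AOS, the list counts without STZ mouse 3 and the values of all members without A10-FMT mouse 2 were added after seeing the data.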

Additional observations from a re-analysis of the deposited data

How the results depend on the processing

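The rise of Marco kept its direction and its call in STZ against Con under all 11 alternatives (2.38 to 3.15 on the log2 scale) and all 6 removals of a mouse, and in STZ+AOS against AOS it ran from 2.19 to 2.74 and, over removals, from 2.05 to 2.71. The number of members called in STZ against Con was 2, and 1 (Marco) with median-ratio scaling, quantile normalization, no filter, only the groups compared, the averaged STZ effect and that effect with median-ratio scaling, the last 2 chosen after seeing the data. Leaving out a mouse gave 1 to 4 there, and 0 to 2 in each FMT group against STZ. With only the groups compared, STZ+AOS against AOS called 2 instead of 1. The cause was not tested. The labels do not say that mice with the same number are related. Each gene was centred on its group mean, and these deviations were correlated between libraries of different groups. The 45 pairs with the same number had correlations of -0.249 to 0.472 (median of 0.032, 16 over 0.1). The 90 pairs with other numbers had -0.535 to 0.449 (median of -0.013, 16 over 0.1). A larger share of the same-number pairs thus passed 0.1. Centring on 3 mice sets the deviations of a group against each other, so these values cannot decide whether the numbers pair mice. The main fits took the mice as unpaired. The fit with the replicate block called 2 members in STZ against Con, 1 in STZ+AOS against AOS and 0 elsewhere, and changed no call of a member.

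Changes near 0 turned direction. With the scaling and averaging together Clec4f in STZ against Con was -0.00013. With median-ratio scaling Timd4 in Con-FMT against Con was -0.024, Marco in AOS against Con -0.035 (quantile -0.034), and in STZ+AOS against AOS Cd5l -0.038, Clec4f -0.17 (quantile -0.16), Adgre1 -0.057 (quantile -0.073) and Cd68 -0.038 (quantile -0.066). Over removals of a mouse, A10-FMT against STZ ran from -0.44 to 0.20 for Clec4f, -0.79 to 0.032 for Vsig4, -0.61 to 0.037 for Cd68 and -0.63 to 0.041 for C1qb, each highest without A10-FMT mouse 2. STZ+AOS against AOS ran from -0.079 to 0.17 for Clec4f, -0.23 to 0.0037 for Timd4 and -0.036 to 0.27 for Adgre1. Timd4 ran from -0.0087 to 0.29 in Con-FMT against Con and -0.07 to 0.31 in A10-FMT against Con-FMT. Marco ran from -0.95 to 0.17 in A10-FMT against Con-FMT, -0.17 to 0.21 in AOS against Con, -0.995 to 0.34 in STZ+AOS against STZ and -1.01 to 0.32 in the difference of STZ changes. The SD between mice of 1 group was 0.413 for the mean log2 level over the members.

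The background of all genes called also moved. With median-ratio scaling it went from 24 to 77 genes in A10-FMT against STZ, from 1 to 75 in Con-FMT against STZ, from 1950 to 1159 in A10-FMT against Con, from 2055 to 871 in Con-FMT against Con and from 4100 to 2645 in STZ+AOS against AOS, where the higher share of calls went from 83.9% to 49.6%. With only the groups compared it was 2649 instead of 4085 for STZ against Con, 3352 for A10-FMT against Con, 2482 in STZ+AOS against AOS and 41 instead of 1 in AOS against Con. Without the filter it was 2 in A10-FMT against STZ and 6 instead of 0 in STZ+AOS against STZ.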

Other observations

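Genes outside the macrophage lists also followed Marco across the 18 libraries. The 4 closest, chosen after their values were seen, were Myo1c (an unconventional myosin, r of 0.96), Vcam1 (an adhesion molecule of endothelium and macrophages, 0.94), Ms4a8a (0.93) and Nid1 (a basement membrane protein, 0.93). Vcam1 was 1.43, 1.73 and 1.42 RPKM in Con and 3.78, 6.17 and 2.34 RPKM in STZ. In AOS mice Vcam1 was 1.84, 1.53 and 2.09 RPKM, and in STZ+AOS mice 2.90 RPKM or more. The STZ mice did not overlap Con, nor the STZ+AOS mice AOS, in this gene, and STZ mouse 2 was the highest library in all 4 genes, as it was for Marco. These correlations describe libraries that share 6 group means, and the genes were picked for them.

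Cd14, a co-receptor for bacterial lipopolysaccharide on macrophages that hepatocytes also express, was chosen after its values were seen. It was 17.4, 1.95 and 10.4 RPKM in Con and 11.2, 11.6 and 4.34 RPKM in STZ (log2 change of 0.13 ± 0.54, SE, adjusted p of 0.862 by limma). In AOS mice it was 1.46, 2.18 and 1.75 RPKM and in STZ+AOS mice 28.1, 6.42 and 16.4 RPKM (log2 change of 2.48 ± 0.55, SE, adjusted p of 0.00337). The STZ change with AOS minus that without was 2.35 ± 0.78 (SE), with an unadjusted p of 0.00844 and an adjusted p of 0.856, so the difference did not pass. The Con mice of this gene spread widely, with an SD of 7.73 RPKM around a mean of 9.91 RPKM.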
